A study of Mus musculus with 69 samples.

Results

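The collagen gene family was measured in mouse dorsal skin over a time course after the phorbol ester TPA. Members were the genes whose symbol has the form Col, number, a, number and which the array measures with a probe set (the set of short probes that reads 1 transcript) annotated to that symbol alone. Where a gene had several such probe sets, the one with the highest mean level was used. This gave 42 collagen genes of 18820 genes in all, from 44 collagen symbols in the reference gene table. Col7a1 and Col9a3 lie only in probe sets that name several genes and are not analysed here. By structure the 42 fall into 11 fibrillar genes, 6 type IV genes of the basement membrane, 3 other genes of the basement membrane zone, 6 type VI genes, 8 fibril-associated genes, 3 short-chain genes and 5 remaining ones. Members were taken by name, and measured values entered only through the choice of probe set. The family itself was picked with earlier results of these data known.

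TPA activates protein kinase C and, painted on mouse skin, brings on inflammation and thickening of the epidermis. Treated skin was sampled at 2, 4, 6, 12, 24, 48, 72, 168 and 1008 h, and untreated skin at 0 h, in FVB (the inbred FVB/N strain), SPR (the wild-derived Spret/Ei) and F1 (their cross). FVB had 3 arrays at each of 2, 6, 12, 24, 48, 72, 168 and 1008 h and 3 at 0 h. F1 had 2 arrays at 4, 6, 12, 24 and 72 h, 3 at 48 h and 6 at 1008 h, against 4 at 0 h, and SPR had 2 at 4, 12, 24, 48 and 1008 h, against 2 at 0 h. F1 at 2 and 168 h, as well as SPR at 2 and 6 h, had 1 array each, and these times were not tested. All mice were kept to an age of 8 weeks and shaved 2 days before a single application in acetone, according to the treatment text. That text stops at 1 week and names no 12 h, while the series design speaks of replicate exposure, so the number of applications behind the 1008 h samples is not settled. No sample is labelled as treated with acetone alone, so shaving, acetone and age cannot be told apart from TPA. No label says that each array came from a mouse of its own, so p-values here rest on spread between arrays that could be technical.

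Collagens are triple-helical proteins of the extracellular matrix. Type I and type III molecules, made chiefly by dermal fibroblasts, assemble outside the cell into the fibrils that give the dermis its strength. Type IV chains build a sheet-like network instead, in the basement membranes under the epidermis and around vessels, where the alpha 1 and alpha 2 chains are found in nearly all basement membranes and the alpha 5 and alpha 6 chains occur together in that of the epidermis. Fibril-associated collagens sit on the surface of fibrils, and type VI collagen forms beaded filaments around cells.

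Type IV genes lie in head-to-head pairs. Promoter windows are shown for Col4a1 with Col4a2 and for Col4a5 with Col4a6, whose changes after TPA differed in direction, and not for Col4a3 with Col4a4, which were never called. Windows are from RefSeq on GRCm38.p6 and span 250 bases before to 50 bases after a transcript start, and 34 of the 42 genes had at least 1 window. In the first pair, Col4a1 (chr8:11312777-11313076, minus strand) and Col4a2 (chr8:11312555-11312854, plus strand), the transcript starts are 21 bases apart and the windows share 78 bases, printed in capitals, which read as reverse complements.
Col4a1: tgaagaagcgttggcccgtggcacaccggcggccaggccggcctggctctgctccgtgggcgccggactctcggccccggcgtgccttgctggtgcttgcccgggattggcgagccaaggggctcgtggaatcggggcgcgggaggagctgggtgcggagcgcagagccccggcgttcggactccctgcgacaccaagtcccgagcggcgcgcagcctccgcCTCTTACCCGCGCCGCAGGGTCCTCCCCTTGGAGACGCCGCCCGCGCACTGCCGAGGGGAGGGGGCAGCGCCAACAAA
Col4a2: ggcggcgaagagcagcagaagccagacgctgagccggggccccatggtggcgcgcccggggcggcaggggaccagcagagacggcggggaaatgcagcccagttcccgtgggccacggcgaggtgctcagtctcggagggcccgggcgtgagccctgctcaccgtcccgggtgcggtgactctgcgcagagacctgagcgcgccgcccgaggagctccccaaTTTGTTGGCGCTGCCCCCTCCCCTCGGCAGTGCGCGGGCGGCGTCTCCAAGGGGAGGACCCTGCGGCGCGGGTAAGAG
In the second pair, Col4a5 (chrX:141475169-141475468, plus strand) and Col4a6 (chrX:141474027-141474326, minus strand), the starts are 1343 bases apart and the windows share no base. Capitals mark matches on either strand to the CCAAT box, to the TATA box (TATAAA) or to TGAGTCA.
Col4a5: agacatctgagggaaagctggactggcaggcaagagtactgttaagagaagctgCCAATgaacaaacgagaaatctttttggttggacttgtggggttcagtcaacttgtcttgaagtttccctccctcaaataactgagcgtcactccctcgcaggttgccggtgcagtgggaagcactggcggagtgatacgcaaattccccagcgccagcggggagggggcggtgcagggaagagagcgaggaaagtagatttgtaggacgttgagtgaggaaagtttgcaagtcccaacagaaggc
Col4a6: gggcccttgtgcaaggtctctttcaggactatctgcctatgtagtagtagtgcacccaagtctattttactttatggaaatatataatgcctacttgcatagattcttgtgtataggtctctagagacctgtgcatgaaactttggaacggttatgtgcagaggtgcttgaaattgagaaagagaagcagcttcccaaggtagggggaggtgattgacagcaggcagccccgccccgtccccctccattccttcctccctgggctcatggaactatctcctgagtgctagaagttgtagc
Of the fibrillar genes that fell together, windows were on hand for Col1a2 (chr6:4505368-4505667, plus strand) and Col3a1 (chr1:45311288-45311587, plus strand), with capitals for the same 3 motifs.
Col1a2: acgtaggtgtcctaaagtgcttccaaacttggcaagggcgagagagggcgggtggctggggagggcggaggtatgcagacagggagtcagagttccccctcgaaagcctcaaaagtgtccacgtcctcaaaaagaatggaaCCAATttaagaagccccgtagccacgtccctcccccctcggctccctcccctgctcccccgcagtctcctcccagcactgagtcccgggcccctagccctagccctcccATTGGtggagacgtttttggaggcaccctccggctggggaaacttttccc
Col3a1: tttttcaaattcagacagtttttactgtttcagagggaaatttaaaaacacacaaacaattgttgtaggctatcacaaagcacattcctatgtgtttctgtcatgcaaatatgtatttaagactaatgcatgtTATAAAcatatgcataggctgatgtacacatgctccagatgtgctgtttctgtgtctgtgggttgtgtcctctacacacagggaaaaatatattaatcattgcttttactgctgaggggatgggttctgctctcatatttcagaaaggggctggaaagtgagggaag
TGAGTCA is the element named after its response to TPA, bound by AP-1 factors, and none of these 6 windows holds it. Among all 32851 windows 5.2% hold it on either strand, and 1 of 37 collagen windows does. The CCAAT box occurs in 37.4% of all windows and 12 of the 37 collagen windows, the TATA box in 13.6% and 5 of 37, and the GC box GGGCGG in 35.7% and 22 of 37. In the Col1a2 window a CCAAT box lies at position -109 from the transcript start, and in the Col4a5 window one lies at -196. A match, or its absence, describes these letters alone.

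Expression values are on the log2 scale as deposited, so a difference of 1 is a doubling. A gene was called when its Benjamini-Hochberg adjusted p over all 18820 genes was under 0.05 and its log2 change at least 1 in size, and values after ± are the fit's standard errors. All arrays showed skin: Krt5, Krt14, Krt1, Krt10, Lor and Krtdap stood at or above the 89.6th percentile in each of the 66. An SPR array at 12 h (replicate 1) had an interquartile range of 1.38 and an F1 array at 72 h (replicate 2) one of 2.39. The other 64 arrays had 3.4 to 3.89. Calls in their own groups that rest on these 2 are given with and without them. The fit takes the spread of a gene from all 66 arrays, so the 2 also enter errors and p of FVB. In FVB, replicates 2 and 3 at 0 h carried high levels of liver transcripts, with scores (means of centred log2 values) up to 2.604. Some treated arrays did too, with scores up to 1.804 at 6 h, 2.955 at 12 h and 2.03 at 24 h. Pancreas transcript scores ran up to 1.914 at 0 h and 3.773 at 6 h. The part of these transcripts in the collagen changes was not tested. Replicate 1 at 48 h and replicate 3 at 72 h had the highest fibroblast and macrophage marker levels of their groups. With 2 or 3 arrays in most groups, precision is limited by their number.

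In FVB skin, with all arrays in the fit, the calls among collagen genes were few, nearly all were falls, and the falls came between 6 and 24 h. At 6 h, 3 of 42 were called, where 12.3% of all genes were. At 12 h it was 5 of 42, with 10.4% of all genes, and at 24 h 2 of 42, with 5.48%. All 10 of these calls were falls, in Col1a1, Col1a2, Col3a1, Col4a5 and Col4a6. None was called at 2 h (6.68% of all genes), at 72 h (1.88%) or at 168 h (0.383%), and 1 rise each was called at 48 h (Col6a5, 5.95% of all genes) and at 1008 h (Col12a1, 8.14%). By limma's unadjusted p under 0.05 there were 10 at 2 h (27.2% of all genes), 7 at 72 h (19.3%) and 2 at 168 h (14.7%). Each count is near or below the share of all genes called. Without replicate 1 of 0 h 2 were called at 12 h and 0 at 24 h, without replicate 2 of 0 h 3 and 1, and without replicate 2 of 12 h 3 at 12 h. The count at 24 h was 1 without replicate 2 of that time and 0 without its replicate 3. The F test over all times called 17 of the 42, with 50.9% of all genes. Without the 2 narrow arrays of the other strains, more members were called in FVB at 24, 48 and 1008 h, with counts given further below.

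**Figure D1:**
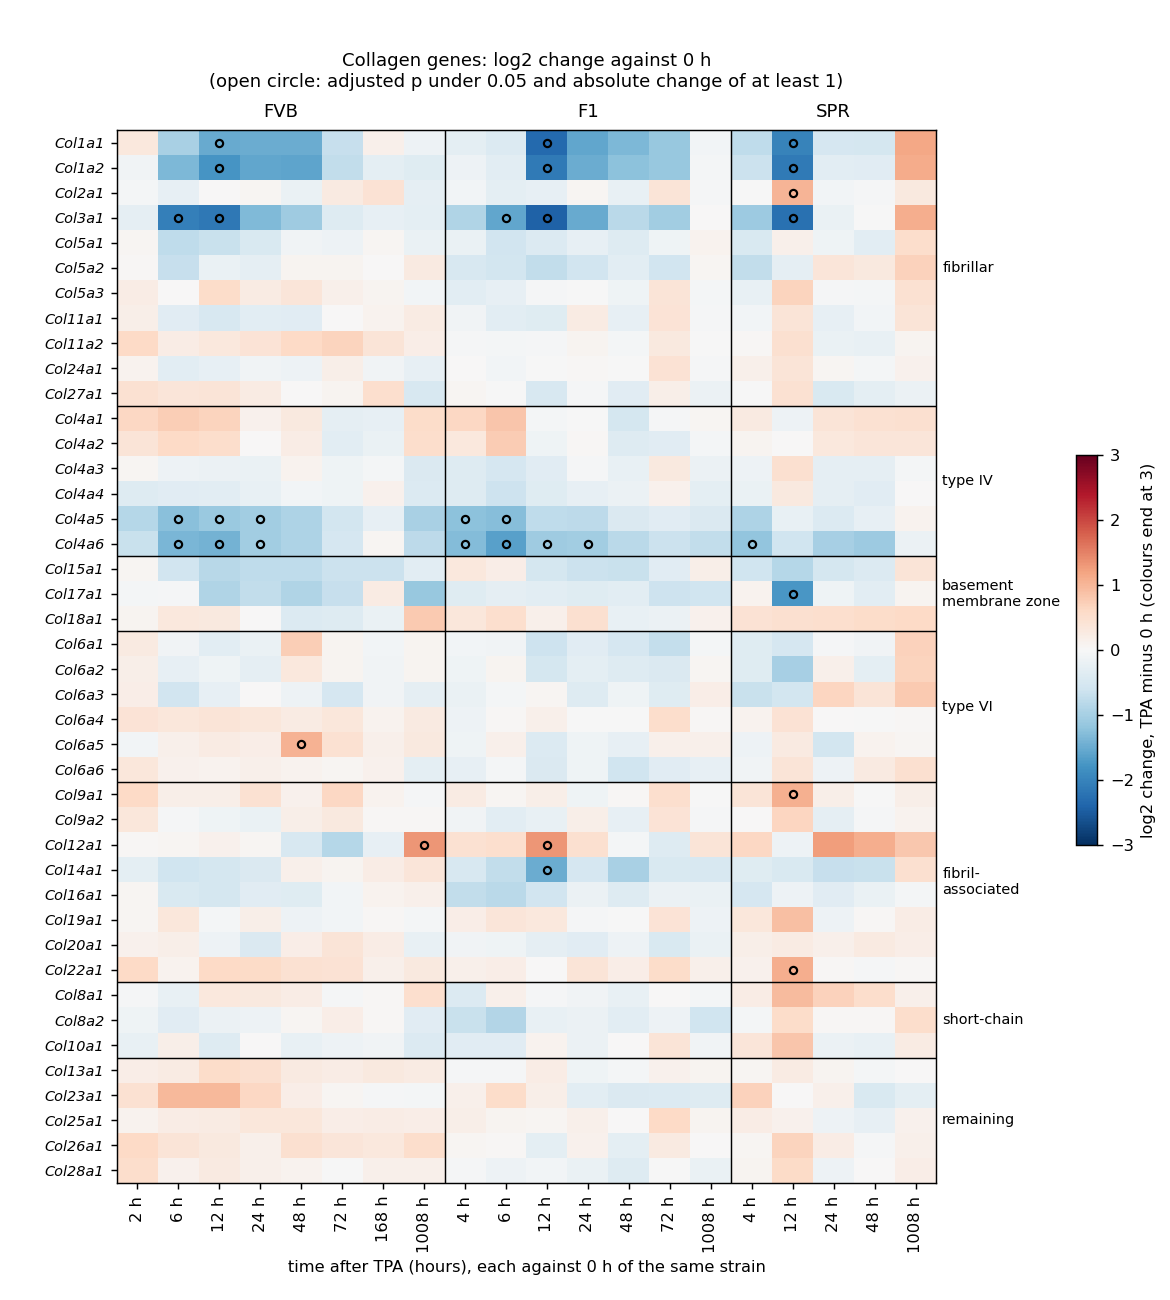
Log2 change (TPA minus 0 h of the same strain) of the 42 collagen genes, in rows grouped by class, at each tested time of FVB, F1 and SPR in columns. Open circles mark calls: Col1a1, Col1a2 and Col3a1 carry them at 12 h in FVB, F1 and SPR, and Col4a5 and Col4a6 at 6 h in FVB and F1. Every call of SPR at 12 h, falls and rises, was lost without 1 narrow array.

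The 3 major fibrillar genes fell in FVB within hours, and Col3a1, the alpha 1 chain of type III collagen, fell most. Its arrays read 7.86, 8.17 and 6.57 at 6 h and 7.38, 6.72 and 8.23 at 12 h, against 9.93, 9.68 and 9.16 at 0 h. All 6 treated arrays lay below all 3 untreated ones. Col3a1 fell by 2.06 ± 0.52 at 6 h (4.16-fold lower, adjusted p = 0.00246) and by 2.15 ± 0.52 at 12 h (4.42-fold lower, adjusted p = 0.00199), and both calls held whichever array was left out. At 24 h its arrays read 8.81, 7.97 and 8.01, still below 0 h, with a log2 change of -1.33 ± 0.52 that was not called (adjusted p = 0.0806). From 48 h on the arrays overlapped those of 0 h, and at 168 h and 1008 h its changes were -0.25 ± 0.52 and -0.28 ± 0.52.

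Col1a1 and Col1a2 encode the 2 chains of type I collagen, the main collagen of dermis. Col1a1 read 9.17, 8.20 and 9.81 at 12 h, against 11.06, 10.66 and 10.00 at 0 h. It fell by 1.51 ± 0.53 at 12 h (2.85-fold lower, adjusted p = 0.0314). Col1a2 read 8.69, 7.69 and 9.39 at 12 h, against 10.82, 10.44 and 9.79 at 0 h. It fell by 1.76 ± 0.57 (3.39-fold lower, adjusted p = 0.0197). In both genes every 12 h array was below every 0 h array, but the margin was narrow: leaving out replicate 1 or 2 of 0 h, or replicate 2 of 12 h, ended either call, as did replicate 1 of 12 h for Col1a1, with adjusted p up to 0.203 for Col1a1 and 0.145 for Col1a2. The change stayed about as large at 24 h, at -1.49 ± 0.53 for Col1a1 (adjusted p = 0.0509) and -1.55 ± 0.57 for Col1a2 (adjusted p = 0.0601), just short of the threshold. At 48 h the 3 arrays of Col1a1 were far apart, at 10.71, 8.83 and 7.71, the highest being the replicate 1 with the high fibroblast and macrophage markers. Without that array 5 collagen genes were called at 48 h, where the full set gave 1, and the count was 0, 4 and 2 without replicate 1 of 0 h, replicate 3 of 0 h and replicate 2 of 48 h. By 168 h Col1a1 read 10.03, 11.04 and 11.12, overlapping the arrays of 0 h.

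The same 3 genes fell in F1 at 12 h. Among the 42 members, 6 were called there, where 4.94% of all genes were, 5 of them lower. Col3a1 read 6.89 and 6.66 at 12 h, against 9.52, 9.88, 8.65 and 8.77 at 0 h, and fell by 2.43 ± 0.55 (5.37-fold lower, adjusted p = 0.00273). Col1a1 read 7.86 and 8.33 at 12 h, against 10.60, 11.00, 9.99 and 10.08 at 0 h, and fell by 2.32 ± 0.56 (adjusted p = 0.00475). Col1a2 read 7.51 and 7.93 at 12 h, against 10.10, 10.55, 9.41 and 9.27 at 0 h, and fell by 2.11 ± 0.60 (adjusted p = 0.0182). Treated and untreated arrays did not overlap in any of the 3. F1 arrays lie in batches 2 and 3, with 1 array of each of 4, 6, 12 and 24 h and 2 of 0 h in either. A change within a batch therefore sets 1 treated array against 2. Its error and p take the spread from the groups of that batch with 2 or more arrays, assuming that the lone array varies like them. In batch 2 these groups include both narrow arrays, and in batch 3 they are F1 at 0 and 1008 h alone. Errors and p of the 2 batches, here and below, therefore do not compare the strength of a change between them. The 12 h changes in batches 2 and 3 were -1.96 ± 0.51 and -2.68 ± 0.36 for Col1a1, -1.82 ± 0.64 and -2.40 ± 0.49 for Col1a2, and -2.42 ± 0.52 and -2.43 ± 0.45 for Col3a1. By that pooled spread adjusted p was 0.191, 0.45 and 0.118 in batch 2 and 0.0114, 0.0275 and 0.0215 in batch 3. Without either 12 h array the calls of Col1a1 and Col1a2 ended, as did that of Col1a2 without replicate 2 of 0 h and that of Col3a1 without replicate 2 of 12 h, at adjusted p up to 0.209, and the count at 12 h was 1 without either 12 h array.

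At 4 h 2 of 42 members were called in F1 (10.5% of all genes) and at 6 h 3 of 42 (10.4%), and the only fibrillar one was Col3a1 at 6 h. Its arrays read 8.12 and 7.15 at 6 h, below all 4 at 0 h, a fall of 1.57 ± 0.55 (adjusted p = 0.0377) that was lost without replicate 1 or 2 of 0 h or replicate 2 of 6 h (log2 change -1.02 and adjusted p = 0.636 without the last). It was -0.97 ± 0.52 within batch 2 (adjusted p = 0.806) and -2.17 ± 0.45 within batch 3 (adjusted p = 0.0137). Col1a1 at 6 h read 10.52 and 9.50, within the range of 0 h. At 24 h 1 of 42 was called (1.89% of all genes), at 48, 72 and 1008 h none (1.39%, 1.99% and 0.802%). At an unadjusted p under 0.05 limma gave 10 at 48 h (11.8% of all genes), 7 at 72 h (25.5%) and 4 at 1008 h (9.87%). The F test over all F1 times called 12 of 42 (26.7% of all genes). Col1a1 at 24 h read 9.93 and 7.79, arrays too far apart for its change of -1.55 ± 0.56 to be called (adjusted p = 0.145), with -2.50 ± 0.51 in batch 2 and -0.61 ± 0.36 in batch 3. At 1008 h its 6 arrays ran from 9.77 through a median of 10.39 to 11.01, and the change was -0.08 ± 0.42.

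In SPR the 12 h falls of these genes rest partly on the array of narrow range. Of 42 members 7 were called at 12 h, 4 lower and 3 higher, where 18.4% of all genes were called, and without the narrow array 0 were called. Col3a1 read 6.46 (the narrow array) and 7.78 at 12 h, against 9.34 and 9.38 at 0 h, a fall of 2.24 ± 0.64 (adjusted p = 0.0108). Without the narrow array the log2 change was -1.58 ± 0.78 (adjusted p = 0.557). Col1a1 read 7.90 and 9.13 at 12 h, against 10.50 and 10.56 at 0 h, a fall of 2.01 ± 0.64 (adjusted p = 0.0194), or -1.40 ± 0.79 without it (adjusted p = 0.699). Col1a2 read 6.92 and 8.94, against 10.02 and 10.10 at 0 h, a fall of 2.13 ± 0.69 (adjusted p = 0.021), or -1.12 ± 0.82 without it (adjusted p = 0.884). The intact replicate was thus below 0 h in each, with no test able to call it. Leaving out either 0 h array also ended these 3 calls, at adjusted p between 0.0553 and 0.109. The single SPR array at 6 h read 9.0 for Col1a1, 8.54 for Col1a2 and 7.61 for Col3a1, each below both 0 h arrays. That array is of batch 3 and both 0 h arrays are of batch 2, so time and batch cannot be told apart there. At 24 h and 1008 h 1 SPR array is of batch 3 and the other of batch 2. At 4 h 1 of 42 was called (5.26% of all genes), and none at 24 h (0.260%), 48 h (0.207%) or 1008 h, when 0 of all genes were called. At an unadjusted p under 0.05 limma gave 3 at 24 h (5.90% of all genes), 2 at 48 h (5.61%) and 2 at 1008 h (1.90%). The F test over all SPR times called 13 of 42 (35.3% of all genes), and 4 without the narrow arrays.

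At 1008 h the SPR fibrillar values stood above 0 h. Col1a1 read 11.40 and 11.92, against 10.50 and 10.56 at 0 h, with a log2 change of 1.17 ± 0.66. Col3a1 read 10.31 and 10.64, against 9.34 and 9.38, with 1.09 ± 0.65. Neither was called (both adjusted p = 1). Over all 42 members, 37 had a change above 0 with a median of 0.22. Of all 18820 genes 9722 were above 0, with a median of 0.01. The 42 changes come from the same few arrays and are not independent of each other. Of those arrays, 1 at 1008 h is of batch 3, and both at 0 h are of batch 2. All 6 adipocyte markers were above 0 too (median 0.85, scores of 0.711 to 1.094, against -0.45 to 0.639 at 0 h). So were 9 of 10 fibroblast markers (scores of 0.288 to 0.602, against 0.1 to 0.181 at 0 h). The same held for all 6 suprabasal keratinocyte markers (scores of 0.22 to 0.231, against 0.046 to 0.103 at 0 h), while 5 of 6 skeletal muscle markers were below 0. The part of these lists was not tested. FVB and F1 showed no such shift, with medians of -0.05 in both, and the difference of the Col1a1 change between SPR and FVB was 1.33 ± 0.84 (adjusted p = 0.495).

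The other 8 fibrillar genes showed no call in FVB or F1. Col5a1 and Col5a2 encode chains of type V collagen, which takes part in starting type I fibrils. Col5a1 read 5.57, 5.73 and 4.96 at 6 h in FVB, against 6.58, 6.21 and 5.78 at 0 h, a log2 change of -0.77 ± 0.26 that passed on p alone (adjusted p = 0.0257), but its second probe set read 0.22 ± 0.25 (adjusted p = 0.596). Col2a1, the cartilage collagen, was called in SPR at 12 h alone, at 1.02 ± 0.34, and without the narrow array its change was -0.02. Over all times in FVB, Col27a1 passed the F test (adjusted p = 0.00697) with no single time called. At 12 h in F1 all 11 fibrillar genes had a change below 0, from -2.43 to -0.02, with a median of -0.41, where the median of all genes was -0.00.

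Calls among the type IV genes came in Col4a5 and Col4a6. In FVB, Col4a6 and Col4a5 fell early and stayed low for a day, while every array of Col4a1 and Col4a2 at 6 and 12 h was above those of 0 h. Col4a6 read 5.10, 4.95 and 4.43 at 6 h and 4.73, 5.04 and 4.58 at 12 h, against 6.56, 6.14 and 5.90 at 0 h. It fell by 1.38 ± 0.24 at 6 h (2.60-fold lower, adjusted p = 2.82e-05), by 1.41 ± 0.24 at 12 h (adjusted p = 3.07e-05) and by 1.05 ± 0.24 at 24 h (adjusted p = 0.00263). Col4a5 read 5.20, 5.20 and 4.60 at 6 h, against 6.49, 6.40 and 5.87 at 0 h. It fell by 1.26 ± 0.21 at 6 h (2.39-fold lower, adjusted p = 1.05e-05), by 1.11 ± 0.21 at 12 h (adjusted p = 0.000109) and by 1.05 ± 0.21 at 24 h (adjusted p = 0.000573). No treated array of either gene reached the range of 0 h at these 3 times. The 6 h calls of both genes and the 12 h call of Col4a6 held without any 1 array. The 24 h calls sit at the fold threshold and ended without replicate 1 of 0 h, for Col4a5 also without replicate 2 of 0 h or 3 of 24 h and for Col4a6 without replicate 2 or 3 of 24 h, with values from -0.99 to -0.87, and the 12 h call of Col4a5 ended at -0.99 without replicate 1 of 0 h or of 12 h.

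Around these calls Col4a5 and Col4a6 were low too. At 2 h Col4a5 read 5.52, 5.27 and 5.42, a log2 change of -0.85 ± 0.21 that passed on p alone (adjusted p = 0.0034). At 48 h both genes stood at -0.92, with adjusted p = 0.00289 for Col4a5 and 0.0094 for Col4a6. At 168 h the Col4a6 arrays read 6.33, 6.22 and 6.19, inside the range of 0 h. At 1008 h they were low again, at 5.50, 5.43 and 5.31, with a change of -0.78 ± 0.24 (adjusted p = 0.0186), and Col4a5 had -0.96 ± 0.21 (adjusted p = 0.000798), both under the fold threshold.

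Col4a1 read 7.04, 7.04 and 6.94 at 6 h in FVB, against 6.36, 6.47 and 5.99 at 0 h, and every treated array was above every untreated one at 2, 6 and 12 h. Its log2 changes were 0.61 ± 0.22 at 2 h (adjusted p = 0.0486), 0.74 ± 0.22 at 6 h (adjusted p = 0.00918) and 0.67 ± 0.22 at 12 h (adjusted p = 0.0212), which passed on p but not on the fold threshold. Col4a2 read 6.97, 6.91 and 7.0 at 6 h, against 6.65, 6.30 and 6.16 at 0 h, with 0.59 ± 0.21 (adjusted p = 0.029). By 24 h both overlapped the arrays of 0 h. The F test over times passed for all 4 genes, with adjusted p between 2.17e-06 for Col4a6 and 0.00048 for Col4a2. Col4a3 and Col4a4, whose chains are best known from kidney, were never called, and their changes in FVB never passed on p.

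F1 showed falls of the same 2 genes. Col4a6 read 4.98 and 5.04 at 4 h and 4.86 and 4.51 at 6 h, against 5.83, 6.48, 6.35 and 6.57 at 0 h. It fell by 1.30 ± 0.26 at 4 h (adjusted p = 0.000177), 1.62 ± 0.26 at 6 h (adjusted p = 6.49e-06), 1.07 ± 0.26 at 12 h (adjusted p = 0.00479) and 1.04 ± 0.26 at 24 h (adjusted p = 0.0146). Col4a5 read 4.66 and 5.03 at 4 h and 4.84 and 4.75 at 6 h, against 5.95, 6.37, 5.79 and 6.19 at 0 h. It fell by 1.23 ± 0.22 at 4 h (adjusted p = 4.3e-05) and by 1.28 ± 0.22 at 6 h (adjusted p = 2.66e-05). Groups did not overlap, and the 4 and 6 h calls of both genes held without any 1 array. By the same comparison of 1 array with 2, the 6 h changes within batch 2 were -1.23 ± 0.45 and -1.03 ± 0.37 for Col4a6 and Col4a5 (adjusted p = 0.366 and 0.34), and within batch 3 they were -2.02 ± 0.17 and -1.53 ± 0.18 (adjusted p = 0.00145 and 0.00291). At 4 h the changes of Col4a6 and Col4a5 were -1.11 ± 0.45 and -1.21 ± 0.37 within batch 2 (adjusted p = 0.411 and 0.173) and -1.49 ± 0.17 and -1.25 ± 0.18 within batch 3 (adjusted p = 0.00307 and 0.00535). The Col4a6 changes at 12 and 24 h were -0.90 ± 0.45 and -1.19 ± 0.45 in batch 2 and -1.23 ± 0.17 and -0.90 ± 0.17 in batch 3. The Col4a6 calls at 12 and 24 h each ended without 1 of 3 arrays, with values from -1.08 to -0.71 (adjusted p up to 0.46, without replicate 2 of 24 h), those arrays being replicate 4 of 0 h and either array of 12 h, and replicate 2 or 4 of 0 h or 2 of 24 h. Col4a1 in F1 stood at 0.63 ± 0.23 at 4 h (adjusted p = 0.046) and 0.84 ± 0.23 at 6 h (adjusted p = 0.00667), and at -0.06 ± 0.23 at 12 h.

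In SPR Col4a6 read 4.90 and 5.11 at 4 h, against 6.08 and 6.28 at 0 h, and fell by 1.18 ± 0.30 (adjusted p = 0.00756). Without replicate 2 of 0 h or replicate 1 of 4 h its change was -1.08 and the call was lost (adjusted p = 0.108 and 0.0946). Col4a5 read 5.0 and 4.91 at 4 h, against 5.87 and 5.89, with -0.92 ± 0.25 (adjusted p = 0.0157), under the fold threshold. At 12 h the arrays disagreed, Col4a6 reading 6.09 in the narrow one and 5.07 in the other. Leaving the 2 narrow arrays out moved the Col4a6 change to -1.11 ± 0.33 at 12 h (adjusted p = 0.101) and left it at -1.09 ± 0.27 at 48 h, which was then called (adjusted p = 0.0464). At 1008 h SPR values were back at 6.02 and 6.11. Col4a1 in SPR stood at 0.27 ± 0.27 at 4 h (adjusted p = 0.815).

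**Figure D2:**
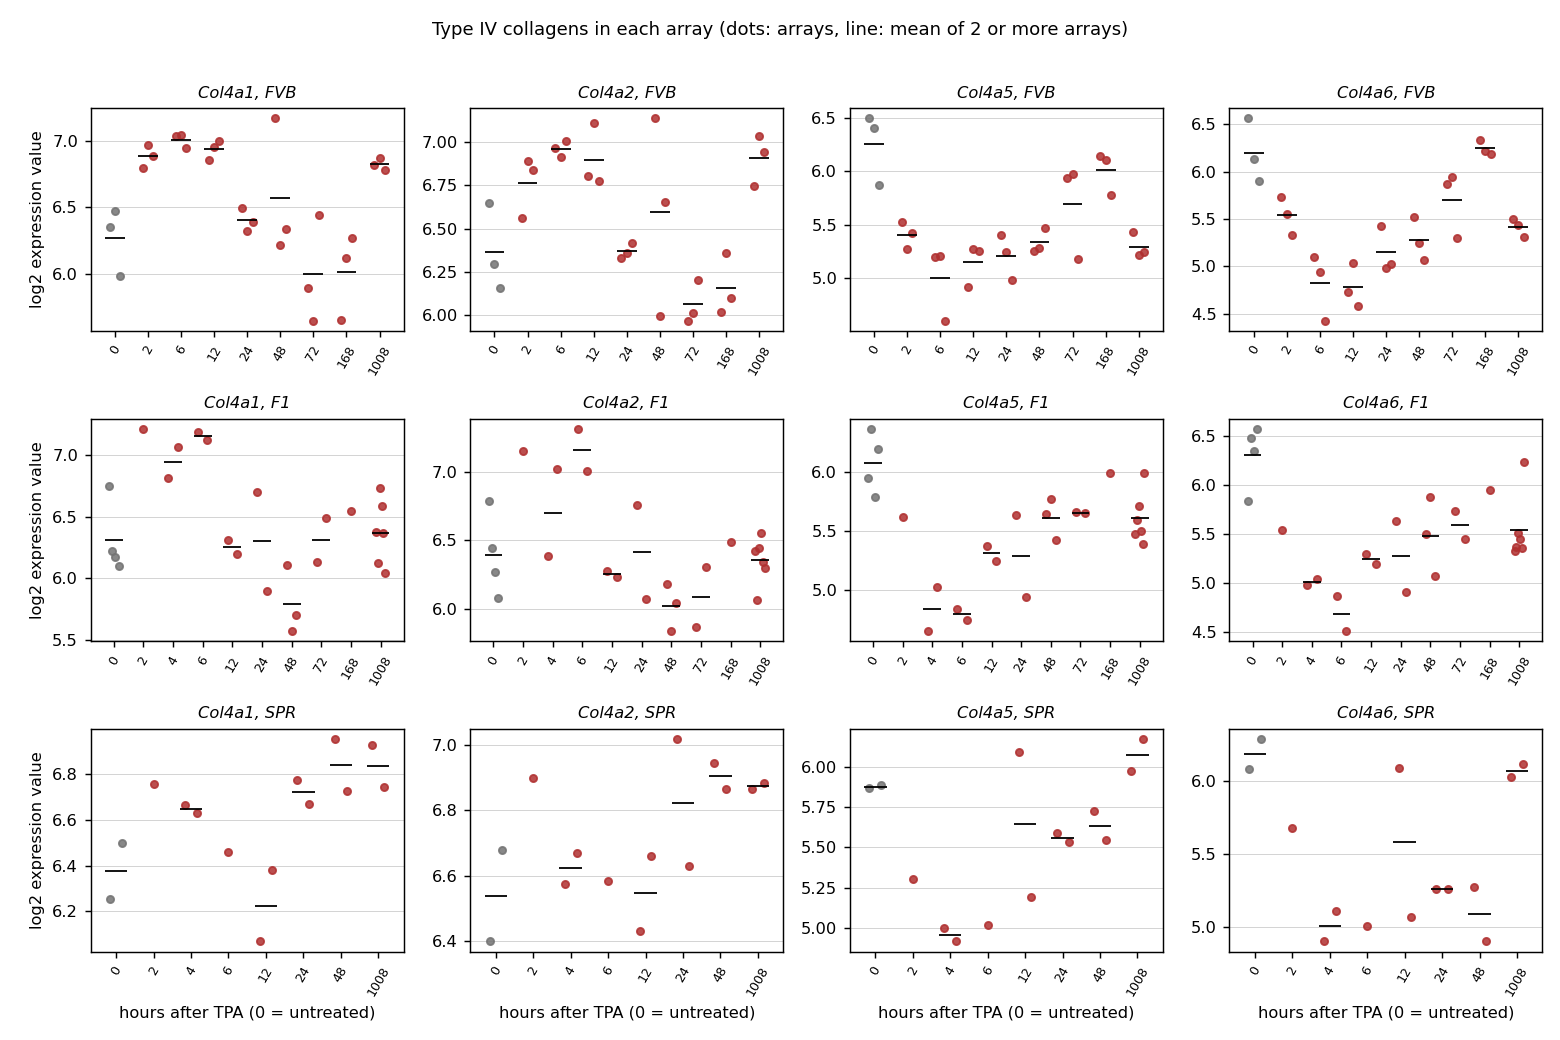
Log2 expression of Col4a1, Col4a2, Col4a5 and Col4a6 in each array of FVB, F1 and SPR by hours after TPA (times evenly spaced, scales differ between panels), with red dots for TPA, grey dots for untreated skin at 0 h and a line at the mean of 2 or more arrays. Col4a5 and Col4a6 are low at 6 h in FVB and at 4 and 6 h in F1, Col4a5 already at 2 h in FVB, while Col4a1 stands above 0 h at 6 h in both.

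The counts and medians of the fibrillar and the type IV genes are set side by side here, with no test between the classes. In FVB at 6 h 1 of 11 fibrillar genes and 2 of 6 type IV genes were called (12.3% of all genes), with median log2 changes of -0.33 and -0.25. At 12 h it was 3 of 11 and 2 of 6 (10.4% of all genes), with medians of -0.24 and -0.24, and at 24 h 0 of 11 and 2 of 6 (5.48% of all genes), with -0.27 and -0.21, while the median of all genes was -0.00, 0.01 and -0.00 at these times. In F1 the counts were 0 of 11 and 2 of 6 at 4 h (10.5% of all genes), 1 of 11 and 2 of 6 at 6 h (10.4%), 3 of 11 and 1 of 6 at 12 h (4.94%), and 0 of 11 and 1 of 6 at 24 h (1.89%). In SPR they were 0 of 11 and 1 of 6 at 4 h (5.26% of all genes) and 4 of 11 and 0 of 6 at 12 h (18.4%), the 4 being lost without the narrow array. The SPR medians were -0.22 and -0.18 at 4 h, 0.38 and -0.07 at 12 h, and 0.46 and 0.07 at 1008 h. At 4 h in F1, when Col4a5 and Col4a6 had fallen, Col1a1 had -0.30 ± 0.56 and Col1a2 -0.16 ± 0.60. Within type IV at 6 h the changes ran from -1.38 to 0.74 in FVB and from -1.62 to 0.84 in F1.

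**Figure D3:**
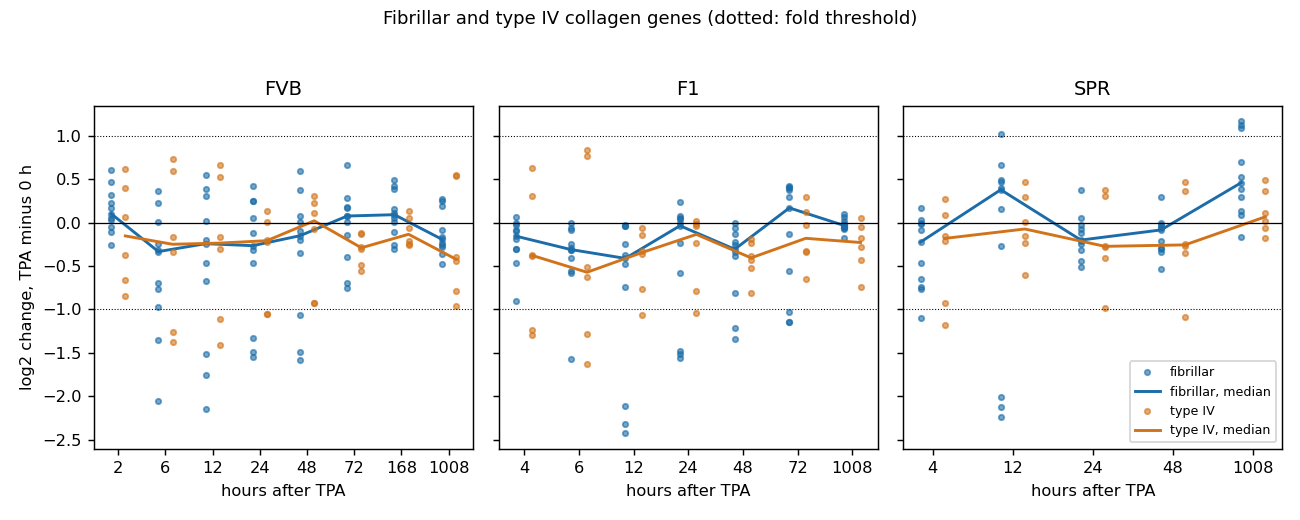
Log2 change (TPA minus 0 h) of each fibrillar gene (blue) and each type IV gene (orange) by hours after TPA in FVB, F1 and SPR, with lines through the class medians and dotted lines at the fold threshold. The medians stay between -0.57 and 0.46, and a few genes of each class lie far below them.

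The 3 remaining basement membrane zone genes gave no call in FVB or F1. Col17a1, a transmembrane collagen that anchors basal keratinocytes, read 9.55, 9.53 and 9.80 at 1008 h in FVB, against 11.04, 10.77 and 10.45 at 0 h. All 3 treated arrays were lower, and the change of -1.13 ± 0.42 just missed the threshold (adjusted p = 0.0544). In F1 its 6 arrays at 1008 h ran from 9.63 through a median of 10.31 to 10.63, all below the lowest 0 h array at 10.67, with -0.59 ± 0.33 (adjusted p = 0.622). The SPR call of Col17a1 at 12 h, a fall of 1.76 ± 0.51, came from the narrow array, which read 6.83 beside 10.57 in the other, and the change without it was 0.12. Col18a1, the source of endostatin, read 7.75, 7.63 and 7.90 at 1008 h in FVB, against 6.78, 6.97 and 7.18 at 0 h, with 0.78 ± 0.23 (adjusted p = 0.0146), under the fold threshold. Col15a1, found where basement membranes meet the matrix, had -0.84 ± 0.30 at 12 h in FVB (adjusted p = 0.0362).

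Among fibril-associated genes Col12a1 rose in FVB at 1008 h and in F1 at 12 h, and Col14a1 fell in F1 at 12 h. Col12a1, whose product binds type I fibrils, read 9.43, 9.25 and 9.48 at 1008 h in FVB, against 8.20, 8.03 and 7.95 at 0 h. It rose by 1.33 ± 0.28 (2.52-fold higher, adjusted p = 0.000522), and this held without any 1 array. Without both 0 h arrays that carried liver transcripts, which leaves 1 there, the rise was 1.19 and the call was lost. All 3 arrays of 1008 h carried such transcripts too, with scores of 1.141 to 1.388. Neutrophil marker scores were also higher at 1008 h, from 0.955 to 1.545, against -2.077 to -1.931 at 0 h. They did not follow Col12a1 over the course, since at 12 h they ran from 1.166 to 2.047 with Col12a1 near 0 h. The part of either list was not tested. The 72 h arrays of the same strain were the lowest, at 7.73, 7.22 and 6.66, with -0.85 ± 0.28 (adjusted p = 0.069). In FVB at 12 h Col12a1 read 8.17, 8.36 and 8.02, within 0.12 ± 0.28 of 0 h.

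In F1 at 12 h Col12a1 read 9.38 and 8.94, above all 4 arrays of 0 h at 8.51, 7.53, 7.96 and 7.35, and rose by 1.32 ± 0.29 (2.50-fold higher, adjusted p = 0.00223). Within a batch, where 1 array of 12 h again stands against 2, the change in batch 2 was 0.71 ± 0.58 (adjusted p = 1) and in batch 3 it was 1.94 ± 0.26 (adjusted p = 0.0114), and without replicate 1 of 12 h it was 1.00 (adjusted p = 0.162). In SPR it read 8.64 and 8.51 at 24 h and 8.51 and 8.45 at 48 h, against 7.28 and 7.50 at 0 h, with 1.26 ± 0.35 and 1.09 ± 0.34 (adjusted p = 0.127 and 0.205). Leaving out the 2 narrow arrays left these values as they were and both were then called (adjusted p = 0.00487 and 0.0233). The SPR arrays at 12 h disagreed, the narrow one reading 6.16 and the other 8.33.

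Col14a1, which also sits on fibrils, read 4.83 and 4.89 at 12 h in F1, against 6.53, 6.34, 5.87 and 6.63 at 0 h. It fell by 1.49 ± 0.46 (adjusted p = 0.0305), with -1.31 ± 0.49 in batch 2 and -1.66 ± 0.22 in batch 3 (adjusted p = 0.51 and 0.0113). The call was lost without any of replicates 1, 2 and 4 of 0 h or either 12 h array (adjusted p from 0.0568 to 0.229). In FVB at 12 h the 3 arrays read 6.74, 5.02 and 5.0, too spread for a call. Col16a1, a minor fibril-associated collagen, was below 0 h in all treated arrays at 6 and 12 h in FVB (-0.46 ± 0.16 and -0.53 ± 0.16, adjusted p = 0.0327 and 0.0138) and at 4, 6 and 12 h in F1, where it reached -0.81 ± 0.17 at 6 h (adjusted p = 0.000564), short of the fold threshold each time. Col9a1 and Col22a1 were called higher in SPR at 12 h alone, at 1.06 ± 0.27 and 1.08 ± 0.34, and had 0.39 and 0.02 without the narrow array.

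**Figure D4:**
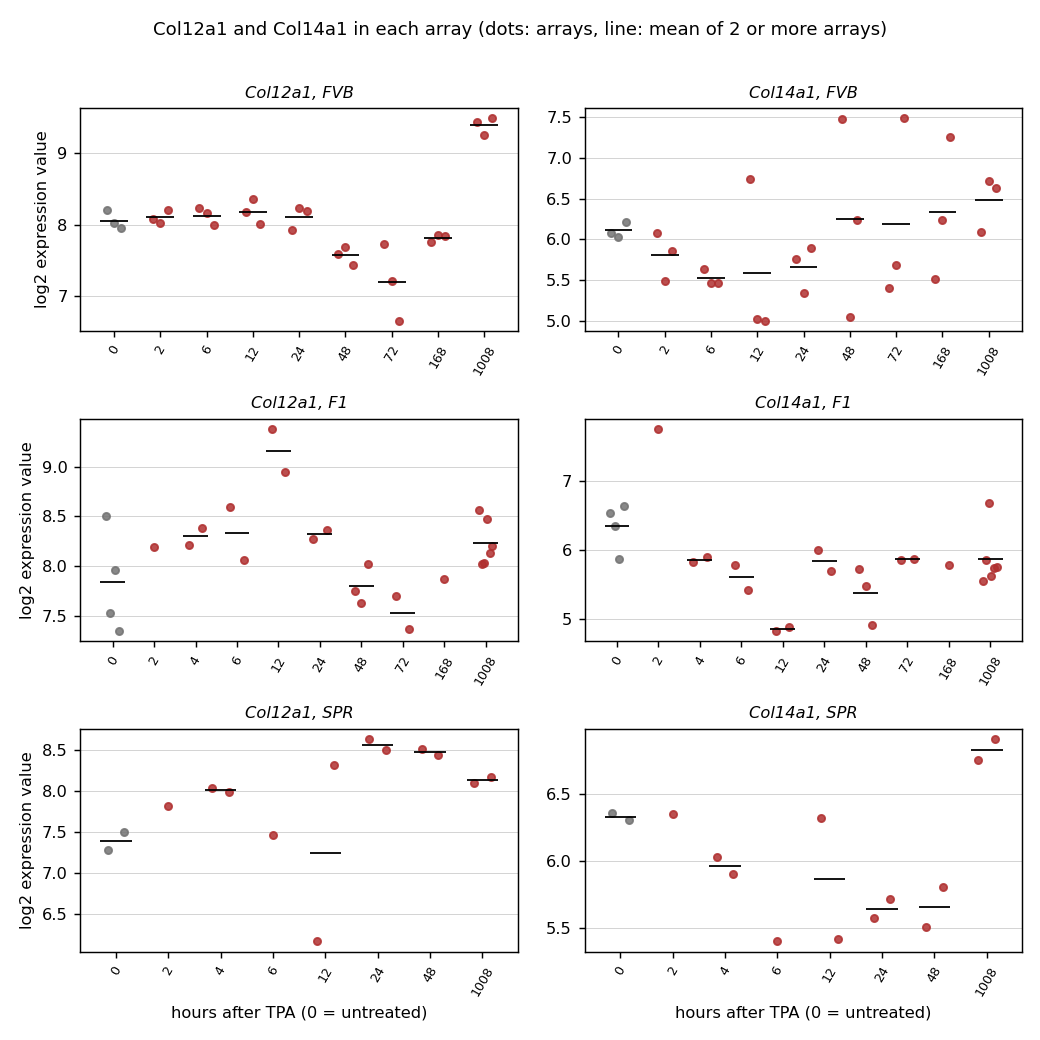
Log2 expression of Col12a1 and Col14a1 in each array of FVB, F1 and SPR by hours after TPA (times evenly spaced, scales differ between panels), with red dots for TPA, grey dots for untreated skin at 0 h and a line at the mean of 2 or more arrays. Col12a1 stands above 0 h at 1008 h in FVB and at 12 h in F1, and Col14a1 is lowest at 12 h in F1.

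The other classes gave 1 call in FVB and none in F1 or SPR. Col6a5, a chain of type VI collagen, read 7.01, 5.01 and 5.13 at 48 h in FVB, against 4.54, 4.74 and 4.74 at 0 h. Its rise of 1.04 ± 0.28 (adjusted p = 0.0101) rests on replicate 1, without which it was 0.40 (adjusted p = 0.25), and it also fell under the fold threshold, to 0.98, without replicate 1 of 0 h. The same array had a fibroblast marker score of 1.161 and a macrophage score of 2.553, the highest of the group. Col6a1, Col6a2 and Col6a3, the main chains of type VI collagen, were never called. Col23a1, a transmembrane collagen, was close to the fold threshold in FVB. It read 7.75, 7.57 and 7.33 at 6 h and 7.45, 7.75 and 7.40 at 12 h, against 6.49, 6.51 and 6.69 at 0 h, with 0.98 ± 0.23 (adjusted p = 0.000955) and 0.97 ± 0.23 (adjusted p = 0.0014). In F1 it had 0.56 ± 0.24 at 6 h (adjusted p = 0.0995). Col13a1, also transmembrane, had 0.54 ± 0.19 at 12 h in FVB (adjusted p = 0.0311). Of the short-chain genes, Col8a2 was lower in F1 at 4 and 6 h on p alone (-0.66 ± 0.24 and -0.88 ± 0.24, adjusted p = 0.0473 and 0.00773), and Col8a1 and Col10a1 were never called.

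The strains could be compared only through their changes, since all FVB arrays are of batch 1 and the others of batches 2 and 3. Over shared times the change of Col12a1 differed between F1 and FVB (adjusted p = 0.0135), 1 of 42 members where 1.88% of all genes differed. Between SPR and FVB it differed for Col12a1 and Col10a1 (adjusted p = 0.00335 and 0.0381), 2 of 42 with 20.5% of all genes. The first count was 0 without replicate 1 or 3 of FVB at 1008 h, and the second was 1 without any of 9 arrays and 27 without the intact SPR array at 12 h. Between SPR and F1 it differed for 0 of 42, with 0.0106% of all genes (5 at limma's unadjusted p under 0.05, with 16.6% of all genes), but for 20 without that intact array. Without the narrow arrays Col12a1 differed still (adjusted p = 0.000106 and 0.000183) and Col10a1 did not pass (adjusted p = 0.204). For Col12a1 at 48 h the SPR change was 1.09 and the FVB change -0.49, a difference of 1.58 ± 0.44 (adjusted p = 0.173, and 0.00704 without the narrow arrays). At 1008 h the F1 change of 0.38 and the FVB change of 1.33 differed by -0.96 ± 0.35 (adjusted p = 0.192, and 0.0166 without them). The falls of Col1a1, Col1a2, Col3a1, Col4a5 and Col4a6 did not differ by these tests, though with wide errors: for Col3a1 at 12 h the difference F1 minus FVB was -0.28 ± 0.76. For Col4a1 at 12 h the F1 change was -0.06 and the FVB change 0.67, a difference of -0.72 ± 0.32 (adjusted p = 0.999).

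Other genes of the collagen pathway are described by counts, and no list was tested. Of 12 genes of collagen breakdown and its control, 6 rose and none fell at 6 h in FVB, where 12.3% of all genes were called, with Mmp13, a collagenase, at 5.06 ± 0.62 and Mmp3, a stromelysin, at 3.92 ± 0.61, and the protease inhibitor Timp1 at 4.82 ± 0.49. At 12 h (10.4% of all genes called) 5 rose and 1 fell, the inhibitor Timp3 at -1.86 ± 0.40. In F1 5 of these 12 rose at 12 h (4.94% of all genes called), among them Mmp13 at 5.08 ± 0.66. In SPR 3 rose at 4 h (5.26% of all genes called). Of 16 collagen-binding matrix proteins, 4 fell at 6 h in FVB and 6 at 12 h, with none higher. They were led at 6 h by Aspn (asporin) at -2.37 ± 0.39 and at 12 h by Ogn (osteoglycin), at -1.72 ± 0.41. In F1 4 of the 16 fell at 12 h (4.94% of all genes called), with Fmod (fibromodulin) at -1.86 ± 0.33. Prelp rose there at 6 h (10.4% of all genes called), by 2.14 ± 0.57. Of 9 genes of procollagen processing and cross-linking, Loxl4 rose and 3 genes fell at 6 h in FVB. Loxl4, a lysyl oxidase, stood at 2.98 ± 0.44 and the procollagen protease gene Adamts14 at -2.37 ± 0.34. The F1 values at 6 h were 2.93 ± 0.46 and -2.92 ± 0.36, and the SPR values at 4 h were 3.06 ± 0.54 and -2.02 ± 0.41.

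Of 15 chaperones and hydroxylases that fold collagen chains, 1 was called at 6 h in FVB (Plod3, a lysyl hydroxylase, at 1.5 ± 0.31), 1 at 12 h (P4hb at 1.34 ± 0.37) and 1 at 24 h (P3h2 at -1.19 ± 0.40), and their median change at 12 h was 0.08. The shares of all genes called at these times were 12.3%, 10.4% and 5.48%. Of 9 genes of transforming growth factor beta signalling, which drives collagen transcription in fibroblasts, 3 rose and 1 fell at 6 h in FVB. Tgfb1 stood at 1.64 ± 0.34 and Smad3 at 1.47 ± 0.23, and Tgfb3 at -1.40 ± 0.32. The 3 rises were also called at 4 and 6 h in F1 (10.5% and 10.4% of all genes) and at 4 h in SPR (5.26%). Of 13 other basement membrane proteins, the laminin gene Lama2 fell and Nid1 (nidogen) rose at 6 h in FVB, at -1.16 ± 0.34 and 1.27 ± 0.42. In F1 at 4 h Nid1 rose and 4 of the 13 fell, led by Lama3, a laminin chain of the epidermal basement membrane, at -1.61 ± 0.33.

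The cell marker counts that follow stand beside 12.3% of all genes called at 6 h and 10.4% at 12 h in FVB. In F1 the share was 10.5% at 4 h, 10.4% at 6 h and 4.94% at 12 h, and in SPR 5.26% at 4 h. In lists this short, counts of 1 are near these shares. Of 10 fibroblast markers, 1 fell at 6 h in FVB (Fap, at -1.36 ± 0.28), and at 12 h 2 fell and 1 rose (Pdgfra, at 1.53 ± 0.52). The list score, the mean of centred log2 values, ran from -0.253 to 0.051 at 6 h, with every array below those of 0 h, from 0.106 to 0.277 at 12 h, and from 0.175 to 0.472 at 0 h. In F1 at 12 h Pdgfra was the 1 marker called, at 1.94 ± 0.55, and the score ran from -0.043 to -0.031, inside the 0 h range of -0.424 to 0.019. Of 6 mural cell markers 1 fell at 12 h in FVB, with scores of -0.472 to 0.073, against 0.351 to 0.729 at 0 h. None of 8 endothelial markers was called at 12 h in FVB, while 1 rose at 6 h, and their score at 6 h ran from -0.01 to 0.526, against -0.105 to 0.075 at 0 h. In F1 2 endothelial markers rose at 6 h, with scores of 0.479 to 0.5, against -0.32 to 0.006 at 0 h, beside the 0.84 of Col4a1 at that time, and the single 2 h array had a score of 0.886 with Col4a1 0.90 above the 0 h mean. Of 6 basal keratinocyte markers Itga6 rose and Krt15 fell at 6 h in FVB, at 1.04 ± 0.35 and -2.71 ± 0.43, with scores of -0.724 to 0.132, against -0.132 to 0.31 at 0 h. Krt15 also fell at 4 h in F1 and SPR, at -2.05 ± 0.45 and -1.93 ± 0.52, with list scores of -0.319 to -0.136 in F1, against 0.345 to 0.407 at 0 h, beside the falls of Col4a5 and Col4a6 in F1 and of Col4a6 in SPR. Suprabasal keratinocyte markers, 6 in all, gave 4 falls at 12 h in FVB, with scores of -1.338 to -0.762, against -0.003 to 0.176 at 0 h. The part of any of these cells in the collagen results was not tested, and in whole skin fewer cells of a type and less RNA per cell cannot be told apart.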

How the data were processed

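Total RNA of dorsal skin was measured on 69 expression arrays. The deposited values are on the log2 scale, 1 per probe set, and RMA (version not given) is named in the submitters' processing notes. Whether the batches were adjusted to each other beforehand is not stated there. Gene names came from the platform annotation: of 35556 probe sets 21218 name 1 gene, 1881 several, and 12457 are not listed. No further normalization or filter on dim probe sets was applied. The probe set of highest mean stood for each of 18820 genes.

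The 66 arrays whose labels give strain and time were fitted with limma 3.58.1 in R 4.3.3, as 27 group means plus a batch term separating batch 3 from batch 2, with 38 residual degrees of freedom. Arrays numbered 27 for FVB (all in batch 1), 25 for F1 and 14 for SPR. Each of 20 times with 2 or more arrays was set against 0 h of its strain, two-sided, with Benjamini-Hochberg adjustment over all genes within each comparison. Moderated F tests, with no fold threshold, covered all times of a strain and the differences of changes between strains. An exact permutation test of 3 against 3 arrays cannot go below p = 0.1, so none was used. The other 3 arrays, whose strain is not settled, were left out.

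The members and lists were chosen with earlier results of these data known, as were the 2 sets of doubtful arrays. Every member could be named; per comparison the text favours the 5 largest called rises and falls, and from each other list up to 4 called genes of largest change. Marker genes and counts of a list show no test of the list. Tested on simulated data, the FVB comparison of 12 h with 0 h over 18820 genes recovered 86% of changes of 1.5 and 95% of changes of 2 on the log2 scale, with 6 false calls. The simulated noise was independent between genes and arrays, and each gene had the same spread in every array. It held no batch effect, no narrow arrays and no transcripts of other tissues, so these rates may not hold for the measured arrays. Alternatives were other spread settings, median centring, cyclic loess, a filter on dim genes, no fold threshold, a replicate block, single strains, single batches, dropping the batch term, and leaving out arrays.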

Additional observations from a re-analysis of the deposited data

Results flagged for a closer look

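In 4 cases 1 array of F1 stood apart from the rest of its group by Dixon's ratio of the gap to the range, a rule that by chance marks about 1 group in 20. It was applied to each of the 42 collagen genes at 0 h and again at 1008 h, so 4 cases are near that rate. Col23a1 at 0 h was highest in replicate 3, at 7.28, where the nearest array read 6.98 and the farthest 6.93 (ratio 0.848). At 1008 h Col4a6 was highest in replicate 6, at 6.23, where the others ran from 5.33 to 5.51 (ratio 0.796). The same array was lowest for Col13a1, at 4.42, where the others ran from 4.96 to 5.26 (ratio 0.65). Col14a1 at 1008 h was highest in replicate 3, at 6.67, where the others ran from 5.55 to 5.85 (ratio 0.735).

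The change against 0 h differed between strains for 2 genes. For Col12a1 the differences over shared times had adjusted p = 0.0135 between F1 and FVB and 0.00335 between SPR and FVB by the limma F test. At 12 h the Col12a1 change was -0.15 in SPR and 1.32 in F1, a difference of -1.47 (adjusted p = 0.0447), which was -0.39 without the 2 narrow arrays (adjusted p = 1). For Col10a1, a collagen of growth plate cartilage, the difference between SPR and FVB over shared times had adjusted p = 0.0381. It came at 12 h, with a change of 0.82 in SPR and -0.38 in FVB, a difference of 1.2 (adjusted p = 0.0347) that was 0.87 without the narrow arrays (adjusted p = 0.504).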

How the results depend on the processing

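Over all alternatives 457 of 559 recomputed counts stayed within 1.5 times the reported one and 102 moved, and of 508 values of single called genes 394 kept their call, 110 lost it and 4 reversed. The reversals were Col2a1 (-0.018) and Col17a1 (0.12) in SPR at 12 h, both without the narrow arrays and without SPR replicate 1 of 12 h alone; the ranges on leaving out 1 array ran from -0.018 to 2.06 for Col2a1 and from -3.63 to 0.12 for Col17a1. Counts below are of collagen genes called. With each array centred, FVB at 24 h had 0. Cyclic loess gave FVB 5 at 6 h, 3 at 48 h and 2 at 1008 h, F1 0 at 24 h, and SPR 0 at 12 h, 1 at 24 h, 1 at 48 h and 4 over all times, with differences from FVB in 2 genes for F1 and 1 for SPR. With dim genes left out, FVB had 4 at 24 h, 3 at 48 h and 2 at 1008 h. With no fold threshold FVB had 2, 8, 10, 3 and 4 at 2, 6, 12, 48 and 1008 h, F1 5, 8, 2, 1 and 1 at 4, 6, 24, 48 and 1008 h, and SPR 2 and 11 at 4 and 12 h. Fitted alone, FVB had 2 at 1008 h, F1 3 at 24 h, and SPR 0 at 4 h, at 12 h and over all times. Without the batch term FVB had 2 at 48 h. Batch 2 alone gave 0 for F1 at 4, 6, 12 and 24 h and 2 over all times, and for SPR 0 at 4 h, 1 at 12 h and 2 over all times. Batch 3 alone gave F1 5 at 6 h and 2 at 1008 h. Without the 2 narrow arrays FVB had 4 at 24 h, 3 at 48 h and 2 at 1008 h, SPR 0 at 12 h, 1 at 24 h, 2 at 48 h and 4 over all times, and F1 against FVB 2. Without FVB replicates 2 and 3 of 0 h FVB had 1, 5, 2 and 2 at 2, 6, 48 and 1008 h. The cause of these shifts was not tested.

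Leaving out 1 array at a time, FVB counts ran from 0 to 1 at 2 h, 3 to 4 at 6 h, 2 to 7 at 12 h, 0 to 3 at 24 h, 0 to 5 at 48 h, 0 to 1 at 72 h and 1 to 2 at 1008 h, and 14 to 19 over all times. F1 counts ran from 2 to 4 at 6 h, 1 to 6 at 12 h, 0 to 2 at 24 h, 0 to 2 at 72 h and 9 to 15 over all times, and SPR counts from 0 to 1 at 4 h, 0 to 21 at 12 h and 4 to 28 over all times. Genes whose change differed ran from 0 to 3 for F1 against FVB, 1 to 27 for SPR against FVB and 0 to 20 for SPR against F1. Replicate numbers did not pair the FVB arrays: of 108 pairs with the same number 22 had deviations correlated above 0.1, and 8 of 27 arrays correlated best with their own number. With the replicate number as a block SPR had 1 call at 48 h, F1 against FVB 0 and SPR against FVB 1, and of the single genes Col14a1 in F1 at 12 h lost its call (-1.40, adjusted p = 0.0706). Centring shifted the median of all genes by up to 0.178 (FVB at 2 h), and no called collagen gene changed sign under centring or loess. No detection call was used, so dim genes such as Col4a3 (mean log2 level 4.65) were not set against background.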

Other observations

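Neutrophil markers stood higher at times of the collagen falls, but not only then. In FVB their scores were also high at 1008 h (0.955 to 1.545, against -2.077 to -1.931 at 0 h), when no collagen fall was called. In FVB at 6 h all 5 measured markers were called higher, where 12.3% of all genes were called. The chemokine receptor gene Cxcr2 stood at 5.41 ± 0.56 and the calprotectin gene S100a9 at 3.91 ± 0.74. In F1 at 12 h 3 of 5 markers were called higher (4.94% of all genes called), with S100a8 at 5.69 ± 0.93. Their part in the collagen values was not tested. Of 6 lymphocyte markers 3 fell at 12 h in FVB (10.4% of all genes called), all of them chains of the T cell receptor complex, with Cd3e at -1.32 ± 0.40. The lymphocyte score ran from -0.33 to -0.265 there, while the arrays of 0 h were far apart, at -0.039 to 1.226.

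The 3 arrays outside all groups carry times of 2 h, 6 h and, for the last, none that is settled. In that order Col1a1 read 10.76, 9.76 and 10.75, and Col3a1 read 9.47, 8.19 and 9.41. Col4a1 read 7.41, 7.11 and 6.85, Col4a5 read 5.33, 4.83 and 5.34, and Col4a6 read 5.29, 4.95 and 5.41. Col12a1 read 8.20, 7.65 and 7.44.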
